A study of Bos taurus with 12 samples.

Results

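The miRNA content of granulosa cells was compared between subordinate (SF) and dominant (DF) follicles of day 3 of the estrous cycle. All animals were Simmental heifers whose estrus had been synchronized with a prostaglandin F2α analogue and a GnRH analogue, in both follicle classes alike. Follicles were classed by diameter, the smaller ones as SF and the larger as DF, and the cells were pelleted from follicular fluid that had been pooled by follicle size. The comparison used 6 of the 12 small RNA libraries of the series, 3 biological replicates of SF and 3 of DF, and the labels do not tie a replicate to a heifer. The other 6 libraries came from SF and DF at day 7. A miRNA entered the comparison when 2 or more replicates of either follicle class had at least 1 read of it, which held for all but 420 of the 755 mature bovine miRNA names. Those tested were 279 detected in both classes, 17 in SF alone and 39 in DF alone, and the 420 left out had at most 8 reads each over the 6 libraries.

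Granulosa cells line the follicle, feed the oocyte and convert androgen to estradiol under the control of FSH and later LH. In each follicular wave a group of small follicles is recruited, the dominant follicle is selected to grow on, and the subordinate follicles stop growing and undergo atresia, in which granulosa cells die by apoptosis. A miRNA is a short RNA that pairs with target mRNAs, mainly through a stretch near its 5′ end called the seed, and lowers their translation and stability. miRNAs with the same seed are grouped into families, and those whose genes lie side by side are often cut from a single transcript.

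With 1 entry per mature name, the SF libraries held 199599 to 292684 miRNA reads and the DF libraries 233412 to 405129. A count of 3 reads, the least that can be told from none, was 0.000741% to 0.00150% of a library. This limit covers counting error only, since copies of a molecule made by PCR were not told apart. Levels below are raw read counts or normalized counts, which are raw counts divided by a scale factor for each of the 6 libraries, and raw counts are given in the order of replicates 1, 2 and 3.

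Most of the abundant miRNAs differed little between SF and DF. For bta-let-7a-5p, a regulator of proliferation, the raw counts were 13223, 8299 and 8879 in SF and 14960, 17002 and 10981 in DF, and its log2 ratio of SF to DF was 0.01 with a 95% interval from -0.21 to 0.24. For bta-miR-26a the log2 fold change was 0.06, with an interval from -0.21 to 0.33, and for bta-miR-10b, a miRNA of the Hox clusters, it was 0.23, with an interval from -0.04 to 0.49. The normalized counts of the follicle classes overlapped for all 3. Among the 10 miRNAs with the highest mean share of the reads, bta-miR-92a and bta-miR-191 had a false discovery rate of at most 10% and changed by less than 2 fold, and the other 8 had a higher rate. Over all miRNAs tested the median log2 fold change was -0.04, and 126 had a 95% interval that lay within -1 and 1.

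By the quasi-likelihood test of edgeR, adjusted as of Benjamini and Hochberg, 19 miRNAs, 5.67% of those tested, were differentially expressed. The term stands for a change of 2 fold or more (a log2 fold change beyond -1 or 1), p up to 0.05 and a false discovery rate up to 10%. Log2 fold changes are given with their standard error (SE) and are of SF relative to DF. Of these, 13 (3.88%) were higher in SF and 6 (1.79%) were lower. The 13 together made 1.43%, 1.14% and 1.25% of the reads of the SF libraries and 0.330%, 0.445% and 0.511% of those of the DF libraries. The 6 made 0.0325%, 0.0416% and 0.0171% in SF and 0.0438%, 0.0950% and 0.113% in DF. Both sets were thus minor parts of the miRNA pool, and bta-miR-21-5p supplied most of the first. The normalized counts of SF and DF did not overlap for 16 of the 19, against 94 of all miRNAs tested (28.1%). DESeq2 made 11 of the 19 calls, and those of bta-miR-1246, bta-miR-708, bta-miR-34a, bta-miR-214, bta-miR-3432, bta-miR-212, bta-miR-141 and bta-miR-2885 were lost there, with an adjusted p of 0.124 to 0.258 (DESeq2).

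The number of calls varied with the libraries and the tool. It fell to 10 without SF replicate 1, 6 higher and 4 lower, and lay between 16 and 21 without any other single library. DESeq2 gave 11, and a fit over all 12 libraries of both days gave 8, all of them higher in SF. Those of bta-miR-21-5p, bta-miR-21-3p, bta-miR-155, bta-miR-222 and bta-miR-449a were made under every alternative in which the miRNA was tested and with each library left out in turn. Those of bta-miR-221 and bta-miR-183 were also made with each library left out.

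**Figure D1:**
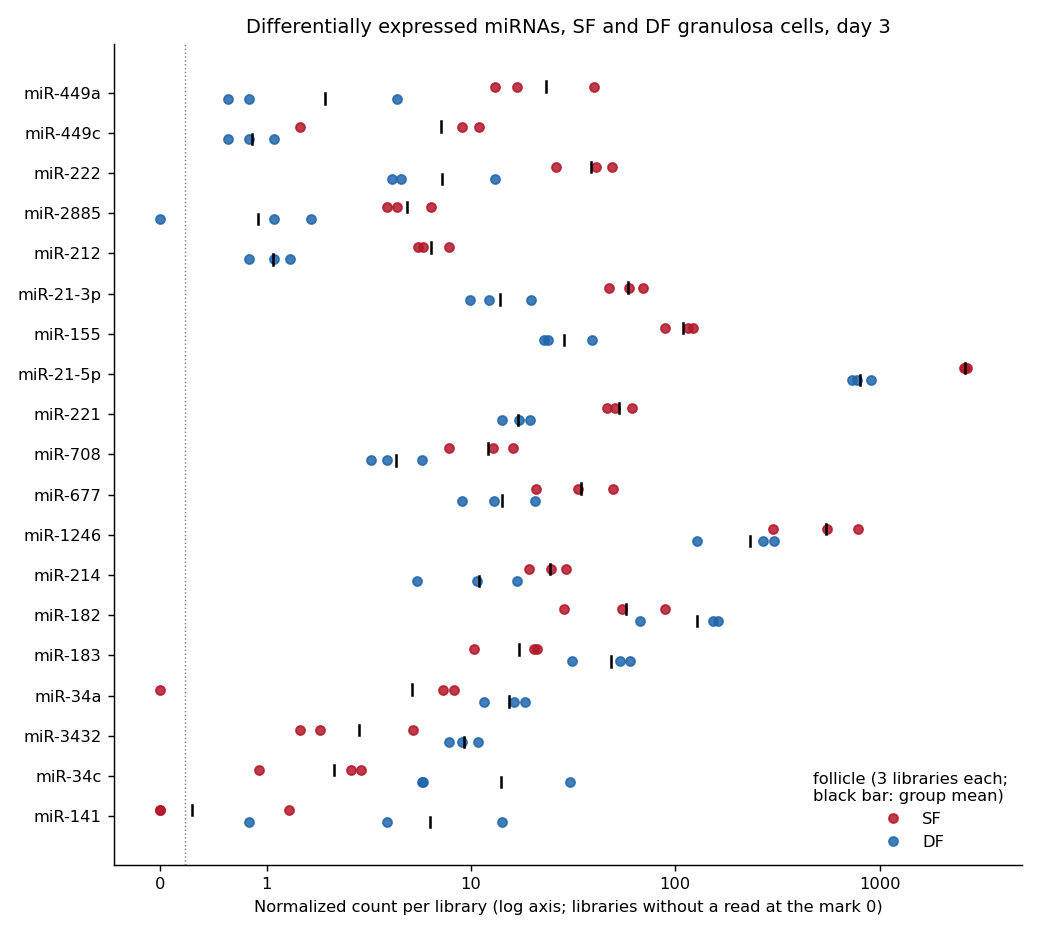
Normalized counts (log axis) of the 19 differentially expressed miRNAs, with a point for each of the 3 SF and 3 DF libraries, black bars for group means, and libraries without a read placed at the mark 0. The points of SF and DF are apart for 16 of the 19, the exceptions being miR-1246, miR-182 and miR-141.

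**Figure D2:**
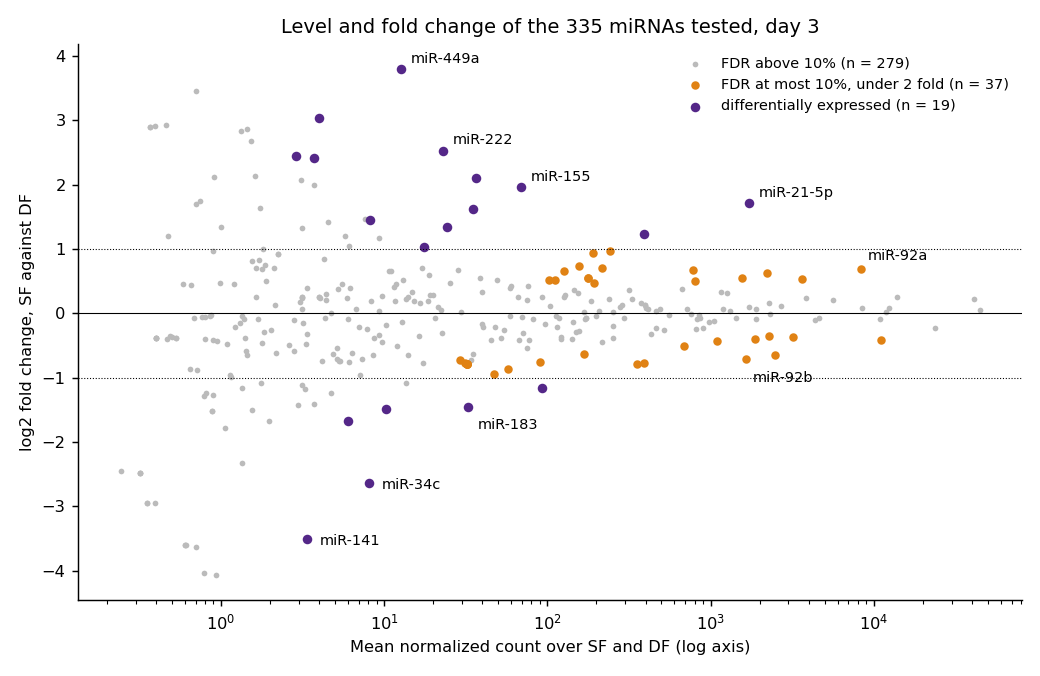
The log2 fold change (SF to DF) of each miRNA tested, plotted over its mean normalized count over both follicle classes (log axis), with dotted lines at -1 and 1. Of the 37 miRNAs with a mean of at least 1000 reads, miR-21-5p alone lies beyond a dotted line, and the grey points beyond the lines have few reads.

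bta-miR-21, known as an inhibitor of apoptosis that LH induces in granulosa cells, was higher in SF on both arms of its hairpin. The raw counts of bta-miR-21-5p were 2870, 1844 and 1992 in SF and 892, 1189 and 833 in DF. Scaled for depth, the 3 SF libraries stood close together at 2628 ± 51.7 normalized counts (SD, n = 3), well above the 804 ± 90.3 of DF. This made a log2 fold change of 1.71 (SE 0.13, edgeR adjusted p = 2.41e-10), with a 95% interval from 1.43 to 1.98. The other arm, bta-miR-21-3p, had 52, 48 and 46 reads in SF and 12, 19 and 18 in DF, and again every SF library was above every DF library. The corresponding log2 fold change was 2.10 (SE 0.29, edgeR adjusted p = 1.40e-05). The 95% intervals of the 2 arms overlapped.

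bta-miR-155, which is abundant in activated immune cells, was higher in SF as well. Its raw counts were 133, 61 and 89 in SF and 29, 35 and 36 in DF, without overlap after scaling. The log2 fold change was 1.96 (SE 0.24, edgeR adjusted p = 2.21e-06), and the normalized counts were 109 ± 17.4 for SF and 28.6 ± 9.17 for DF (SD, n = 3). The leukocyte markers listed for the comparison, bta-miR-142-5p, bta-miR-150 and bta-miR-223, gave 0 of 3 past the false discovery rate in edgeR. Of all miRNAs tested, 16.7% passed, and 0 of 3 cannot be told apart from that share. Of the 3 markers, 0 had an unadjusted p of at most 0.05 in edgeR or in DESeq2. Their summed normalized counts were 116 to 226 in SF and 123 to 178 in DF. Of these markers, bta-miR-223 had 1, 1 and 1 reads in SF and 0, 1 and 1 in DF. The interval of the log2 fold change of bta-miR-142-5p, from -0.17 to 0.73, lay below that of bta-miR-155, from 1.46 to 2.46. The part of leukocytes, or of their activation, in the higher level of bta-miR-155 was not tested.

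bta-miR-221 and bta-miR-222, neighbours on the genome that share a seed and lower the cell cycle inhibitor CDKN1B and the receptor KIT, were both higher in SF. bta-miR-222 had 45, 18 and 38 reads in SF and 5, 7 and 12 in DF. bta-miR-221 had 67, 32 and 39 reads in SF and 21, 30 and 13 in DF. For neither did the normalized counts of the classes overlap. SF exceeded DF by a log2 fold change of 2.53 for bta-miR-222 (SE 0.39, edgeR adjusted p = 5.42e-05) and 1.62 for bta-miR-221 (SE 0.27, edgeR adjusted p = 0.000103). Without DF replicate 3, the DF library with the most bta-miR-222, the value of bta-miR-222 was 3.13. Summed, the pair had 72.7 to 102 normalized counts in SF and 21.4 to 27.2 in DF.

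The largest change of all 19 was that of bta-miR-449a, a miRNA best known from cells with many motile cilia. It had 44, 9 and 13 reads in SF and 1, 1 and 4 in DF. SF replicate 1 stood far above the other SF libraries, and the lowest SF library was still above the highest DF library. The normalized counts were 23.4 ± 14.7 in SF and 1.94 ± 2.09 in DF (SD, n = 3), with a log2 fold change of 3.80 (SE 0.60, edgeR adjusted p = 7.04e-05). This value was 3.05 without SF replicate 1 and 4.87 without DF replicate 3, and the call was made in both cases. Its neighbour on the genome bta-miR-449c had 12, 1 and 7 reads in SF and a single read in each DF library, which gave a log2 fold change of 3.04 (SE 0.84, edgeR adjusted p = 0.0160). Without SF replicate 1 this became 2.53 (edgeR adjusted p = 0.154), so that the call rested on that library. The third member, bta-miR-449b, had 2 reads, both in SF replicate 1, and was not tested.

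bta-miR-34a and bta-miR-34c, transcriptional targets of p53 that promote cell cycle arrest and apoptosis, have the same seed as miR-449 and were lower in SF. bta-miR-34c had 1, 2 and 2 reads in SF and 7, 9 and 28 in DF, with all DF libraries above all SF libraries. bta-miR-34c thus had a log2 fold change of -2.64 (SE 0.77, edgeR adjusted p = 0.0239). DF replicate 3 held most of its reads, and without that library the value was -1.51 (edgeR adjusted p = 0.239). Leaving out SF replicate 1 (adjusted p = 0.163) or SF replicate 3 (edgeR adjusted p = 0.109) also ended the call, with log2 fold changes of -2.21 and -2.83.

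bta-miR-34a had 9, 5 and 0 reads in SF and 14, 25 and 17 in DF, again without overlap. SF was lower by a log2 fold change of -1.48 (SE 0.54, edgeR adjusted p = 0.0723). The library without a read, SF replicate 3, carried much of this difference, and without it the value was -0.95 (edgeR adjusted p = 0.234). The call was also lost without DF replicate 2, at -1.43 (edgeR adjusted p = 0.220), and without DF replicate 3, at -1.36 (edgeR adjusted p = 0.149), whereas it was made at -2.14 without SF replicate 1. The only read of bta-miR-34b was in DF replicate 3.

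Of the 4 members of the miR-34 and miR-449 family tested, 2 were thus higher and 2 lower in SF. Of all miRNAs tested, 3.88% were differentially expressed and higher, and 1.79% lower. The sum over the family did not separate the follicle classes, at 62.2, 24.7 and 28.5 normalized counts in the SF libraries and 18.9, 23.4 and 55.5 in the DF libraries. What differed was the make-up of that sum, in which miR-449 led in every SF library and miR-34 in every DF library. This follows from the directions of the same members and is not a further test. The members had at most 44 reads in a library.

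**Figure D3:**
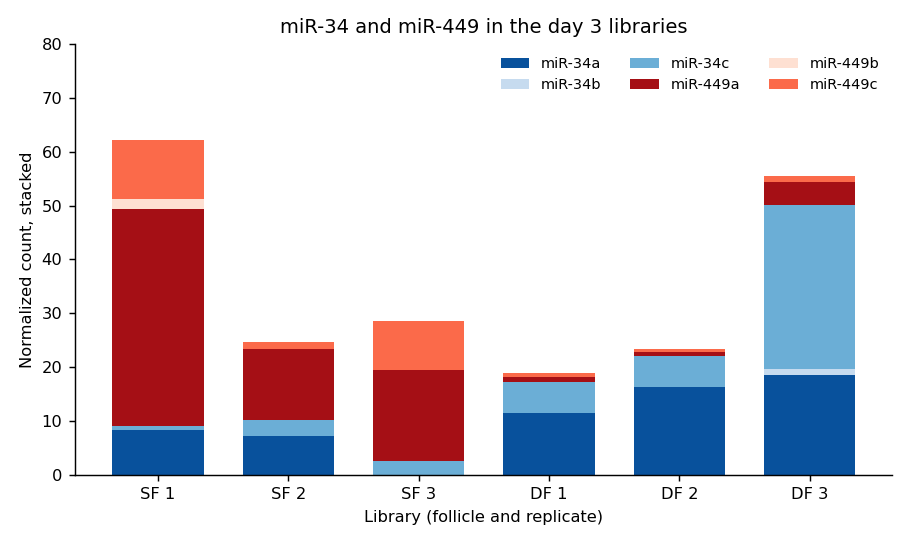
Normalized counts of the members of the miR-34 and miR-449 family stacked for each of the 6 libraries of day 3, blue for miR-34 and red for miR-449. Red makes the larger part of each SF bar and blue of each DF bar, while the heights of the bars overlap, from 24.7 to 62.2 in SF and from 18.9 to 55.5 in DF.

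bta-miR-212 and bta-miR-132 are neighbours that cAMP and CREB switch on, in granulosa cells after LH. bta-miR-212 had 6, 4 and 6 reads in SF and 1, 2 and 1 in DF, all SF libraries lying above all DF libraries after scaling. The test gave a log2 fold change of 2.41 (SE 0.78, edgeR adjusted p = 0.0437), and the call was lost without SF replicate 1 (2.50, edgeR adjusted p = 0.10) and without SF replicate 3 (2.26, edgeR adjusted p = 0.109). bta-miR-132 had 12, 5 and 16 reads in SF and 3, 11 and 7 in DF. These ranges overlapped and the false discovery rate was above the threshold, with a log2 fold change of 1.17 (SE 0.52, edgeR adjusted p = 0.156).

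The miR-199 and miR-214 family, which marks mesenchymal cells, gave 4 of 5 names past the false discovery rate, all higher in SF. Of all miRNAs tested, 8.66% passed and were higher. The median log2 fold change of the 5 was 0.59, and 2 of the 4, bta-miR-199a-3p and bta-miR-199c, are a single measurement. bta-miR-199a-5p had 294, 169 and 180 reads in SF and 149, 218 and 114 in DF. After scaling the classes were well apart, at 249 ± 18.1 and 129 ± 10.5 normalized counts (SD, n = 3). bta-miR-199a-5p had a log2 fold change of 0.94 (SE 0.17, edgeR adjusted p = 0.000377), just under the threshold of 1. For bta-miR-199a-3p it was 0.55 (SE 0.18, edgeR adjusted p = 0.0478), and the adjusted p was 0.116 to 0.198 without SF replicate 1, SF replicate 3, DF replicate 1 or DF replicate 3. For bta-miR-199b it was 0.59 (edgeR adjusted p = 0.289).

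bta-miR-214 itself was differentially expressed, at 21, 20 and 19 reads in SF and 13, 26 and 5 in DF. The DF libraries were spread widely around a mean of 11 ± 5.72 normalized counts, against 24.3 ± 4.96 in SF (SD, n = 3), and did not reach the SF range. Its log2 fold change of 1.03 (SE 0.38, edgeR adjusted p = 0.0739) lay at the threshold. The call was kept only without DF replicate 2, at 1.51. Without SF replicate 1, 2 or 3 or DF replicate 1 or 3 the log2 fold changes were 1.17, 0.85, 1.01, 0.97 and 0.75, with an adjusted p of 0.134 to 0.249 (edgeR).

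bta-miR-335, encoded in an intron of the imprinted gene MEST, stayed under 2 fold by a small margin. Its raw counts were 396, 173 and 269 in SF and 197, 289 and 129 in DF, without overlap after scaling, and the log2 fold change was 0.97 (SE 0.18, edgeR adjusted p = 0.000426). bta-miR-708, whose gene is related to those of miR-28 and miR-151, had 14, 11 and 6 reads in SF and 7, 6 and 3 in DF. This difference came to a log2 fold change of 1.46 (SE 0.52, edgeR adjusted p = 0.0697). The adjusted p of bta-miR-708 was 0.143 to 0.217 (edgeR), at log2 fold changes of 1.22 to 1.38, without SF replicate 1, SF replicate 2, DF replicate 2 or DF replicate 3. The more abundant bta-miR-151-3p and bta-miR-28 did not pass. Their log2 fold changes were -0.09 for bta-miR-151-3p, with an interval from -0.35 to 0.16, and -0.22 for bta-miR-28, with an interval from -0.69 to 0.26.

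The other miRNAs higher in SF were bta-miR-1246, bta-miR-677 and bta-miR-2885, which have less well known roles. bta-miR-1246 had 853, 207 and 426 reads in SF and 156, 468 and 246 in DF, and SF replicate 2 lay within the DF range after scaling. Its log2 fold change was 1.23 (SE 0.26, edgeR adjusted p = 0.00170), and 0.85 without SF replicate 1 (edgeR adjusted p = 0.0563) and 0.93 without DF replicate 1 (edgeR adjusted p = 0.0113), each under the threshold of 1. In DESeq2 bta-miR-1246 had an adjusted p of 0.148. For bta-miR-677 the reads were 54, 23 and 16 in SF and 11, 20 and 19 in DF, just short of overlap once scaled. The log2 fold change of 1.35 (SE 0.35, edgeR adjusted p = 0.0101) became 0.92 (edgeR adjusted p = 0.211) without SF replicate 1. bta-miR-2885 had 7, 3 and 3 reads in SF and 2, 0 and 1 in DF. With so few reads the log2 fold change was 2.44 (SE 0.90, edgeR adjusted p = 0.0785), and the call was lost without SF replicate 1 (2.13), SF replicate 2 (2.50), SF replicate 3 (2.59) or DF replicate 2 (1.75) and made at 3.27 without DF replicate 1.

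On the lower side, bta-miR-183 and bta-miR-182 fell together. Their genes form a cluster with that of miR-96, known from sensory organs, and the cluster lowers the transcription factor FOXO1. bta-miR-183 had 23, 14 and 8 reads in SF and 38, 83 and 55 in DF, with every DF library above every SF library. For bta-miR-183 this was a log2 fold change of -1.45 (SE 0.31, edgeR adjusted p = 0.00190), and the normalized counts were 17.2 ± 5.98 for SF and 48.3 ± 15 for DF (SD, n = 3). bta-miR-182 had 60, 61 and 22 reads in SF and 82, 250 and 140 in DF, where DF replicate 1 lay within the SF range. Its log2 fold change was -1.16 (SE 0.30, edgeR adjusted p = 0.0101), and -0.85 without SF replicate 3 (edgeR adjusted p = 0.155) or -0.94 without DF replicate 2 (edgeR adjusted p = 0.121). bta-miR-96 was at the limit of the depth, with 1 read in SF and 3 in DF.

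bta-miR-141, a member of the miR-200 family that keeps epithelial cells epithelial by lowering ZEB1 and ZEB2, had 0, 0 and 1 reads in SF and 1, 6 and 13 in DF, so that the ranges overlapped. Its log2 fold change was -3.51 (SE 1.22, edgeR adjusted p = 0.0655). The call was lost without SF replicate 1 (-2.88), SF replicate 2 (-3.17), SF replicate 3 (-5.66) or DF replicate 3 (-2.37), with an adjusted p of 0.111 to 0.253 (edgeR). The other epithelial markers had few reads, with 2, 0 and 0 for bta-miR-200a in SF and 0, 0 and 6 in DF. bta-miR-3432 had 2, 1 and 4 reads in SF and 11, 12 and 10 in DF. Its libraries did not overlap, yet the call, at a log2 fold change of -1.68 (SE 0.63, edgeR adjusted p = 0.0847), was made in 1 of the 6 fits that left out a library, at -2.36 without SF replicate 3. In the other 5 the log2 fold change of bta-miR-3432 was -1.41 to -1.79, with an adjusted p of 0.115 to 0.268 (edgeR).

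More miRNAs differed at a false discovery rate of at most 10% without reaching 2 fold. In all, 56 miRNAs (16.7%) passed that rate in edgeR's test, 29 of them higher in SF (8.66%) and 27 lower (8.06%). The 37 that were not differentially expressed had absolute log2 fold changes of 0.35 to 0.97, and 27 of them had a mean of at least 100 reads, against 3 of the 19. Some names share all their counts, which left 32 distinct miRNAs, 15 higher in SF and 17 lower. The 15 made 8.95%, 7.90% and 7.88% of the reads of the SF libraries and 4.86%, 6.30% and 5.54% of those of the DF libraries. The 17 made 7.69%, 7.60% and 7.90% in SF and 9.89%, 11% and 12.6% in DF. In every library each of these sets held a larger share of the reads than the 13 or the 6 differentially expressed miRNAs. With each library left out in turn, 16 of the 37 passed in all 6 fits, and no sign changed. DESeq2 passed 24 of the 37 and lost 13, with an adjusted p of 0.151 to 0.269 (DESeq2). Among those lost were bta-miR-16b, bta-miR-19b, bta-miR-98, bta-miR-202 and the miR-2284 names. The fit over all 12 libraries lost 31 of the 37. Over all miRNAs tested, 35 passed in DESeq2 and 13 in that fit, in place of 56.

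Among the miRNAs past the false discovery rate, the difference in mean normalized count was largest for bta-miR-92a, a member of the growth-promoting miR-17-92 cluster. Its raw counts were 11881, 7233 and 7444 in SF and 7628, 10311 and 5847 in DF. Scaled, every SF library was above every DF library, and the log2 fold change was 0.68 (SE 0.11, edgeR adjusted p = 0.000102). bta-miR-92b, which has the same seed and a gene elsewhere, changed the other way. It had 1752, 798 and 774 reads in SF and 2361, 3097 and 2031 in DF, also without overlap, and its log2 fold change was -0.71 (SE 0.15, edgeR adjusted p = 0.00170). A list of 13 tested names joins bta-miR-92b to the members of the miR-17-92, miR-106a-363 and miR-106b-25 clusters. In it bta-miR-92a and bta-miR-19b passed the false discovery rate and were higher in SF, and bta-miR-92b passed and was lower. Of all miRNAs tested, 8.66% passed and were higher and 8.06% passed and were lower. The median log2 fold change of the 13 was 0.11. The log2 fold change of bta-miR-19b was 0.52 (edgeR adjusted p = 0.0986), and its false discovery rate was under 10% in 1 of the 6 fits that left out a library, the one without DF replicate 1, where the log2 fold change was 0.72.

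In the miR-99, miR-100 and miR-125 clusters, 3 of 6 members were higher in SF and none was lower at that rate. Of all miRNAs tested, 8.66% were higher at that rate. bta-miR-99a-5p had 2969, 2048 and 1875 reads in SF and 2179, 2901 and 1468 in DF, and bta-miR-125b 1893, 1276 and 1511 against 1523, 2044 and 1106. After scaling both were higher in all SF libraries. The log2 fold changes were 0.62 for bta-miR-99a-5p (SE 0.13, edgeR adjusted p = 0.00160), 0.55 for bta-miR-125b (SE 0.13, edgeR adjusted p = 0.00425) and 0.51 for bta-miR-100 (SE 0.16, edgeR adjusted p = 0.0349), whose adjusted p was 0.143 to 0.224 without SF replicate 1, SF replicate 2 or DF replicate 3. The most abundant members, bta-miR-99b and bta-miR-125a, had log2 fold changes of -0.23 and 0.09 and did not pass.

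Of all miRNAs tested, 8.66% passed the false discovery rate and were higher in SF. In the miR-181 family all 4 members had positive log2 fold changes, from 0.47 to 0.85, and 1 passed. This was bta-miR-181a, a miRNA with a part in lymphocyte signalling, with 995, 623 and 824 reads in SF and 605, 1031 and 589 in DF. The classes did not overlap after scaling, and the log2 fold change was 0.67 (SE 0.15, edgeR adjusted p = 0.00255). Among the names listed for the imprinted DLK1-DIO3 cluster 1 of 19 passed, bta-miR-127, at 0.74 (edgeR adjusted p = 0.00807). The median of the 19 was -0.05. This list also held bta-miR-342 and both arms of bta-miR-345, whose place within the imprinted cluster was not checked. bta-miR-146b, which damps inflammatory signalling, had 250, 135 and 299 reads in SF and 186, 259 and 160 in DF. Its log2 fold change was 0.71 (edgeR adjusted p = 0.0196) and 0.37 without SF replicate 3 (edgeR adjusted p = 0.268).

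In the miR-15, miR-16, miR-195, miR-424, miR-497 and miR-503 family, which restrains cyclins and BCL2, 10 members were tested. Of them 3 were lower in SF at the false discovery rate of 10% and none was higher. Of all miRNAs tested, 8.06% were lower at that rate. The median log2 fold change of the 10 was -0.32. bta-miR-16a had 225, 190 and 234 reads in SF and 549, 662 and 429 in DF, and its neighbour bta-miR-15a 60, 54 and 54 against 136, 178 and 105. For both, all DF libraries were above all SF libraries. The log2 fold changes were -0.78 for bta-miR-16a (SE 0.17, edgeR adjusted p = 0.00178) and -0.76 for bta-miR-15a (SE 0.20, edgeR adjusted p = 0.0130). That of bta-miR-16b was -0.35 (edgeR adjusted p = 0.0695), and its adjusted p was 0.113 to 0.213 without SF replicate 1, SF replicate 3, DF replicate 2 or DF replicate 3. In contrast, bta-miR-195 and bta-miR-497 each had a log2 fold change of -0.07.

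Other miRNAs with many reads were lower in SF. bta-miR-22-3p had 2043, 1448 and 1427 reads in SF and 3464, 4166 and 3250 in DF, with a log2 fold change of -0.64 (SE 0.13, edgeR adjusted p = 0.00147). bta-miR-191 had 9935, 6524 and 7760 reads in SF and 14649, 19021 and 12805 in DF, with a log2 fold change of -0.42 (SE 0.11, edgeR adjusted p = 0.0121). Neither overlapped between the classes after scaling. bta-miR-204, from an intron of TRPM3, had normalized counts of 225, 321 and 325 in SF and 538, 377 and 573 in DF, also apart, and a log2 fold change of -0.77 (SE 0.18, edgeR adjusted p = 0.00425). The let-7 and miR-98 family gave 1 of 10, near the 8.06% of all miRNAs tested that passed and were lower. This was bta-miR-98, at -0.40 (edgeR adjusted p = 0.0649). It was lost without SF replicate 1, SF replicate 3 or DF replicate 3, with an adjusted p of 0.126 to 0.25 (edgeR). The ruminant miR-2284 and miR-2285 family gave 5 of 28 names, near the 16.7% of all miRNAs tested, all lower at -0.78 (edgeR adjusted p = 0.0695), but these 5 have the same counts and stand for a single measurement. That measurement was lost without any of the 3 SF libraries or DF replicate 2 (adjusted p of 0.109 to 0.347, edgeR).

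**Figure D4:**
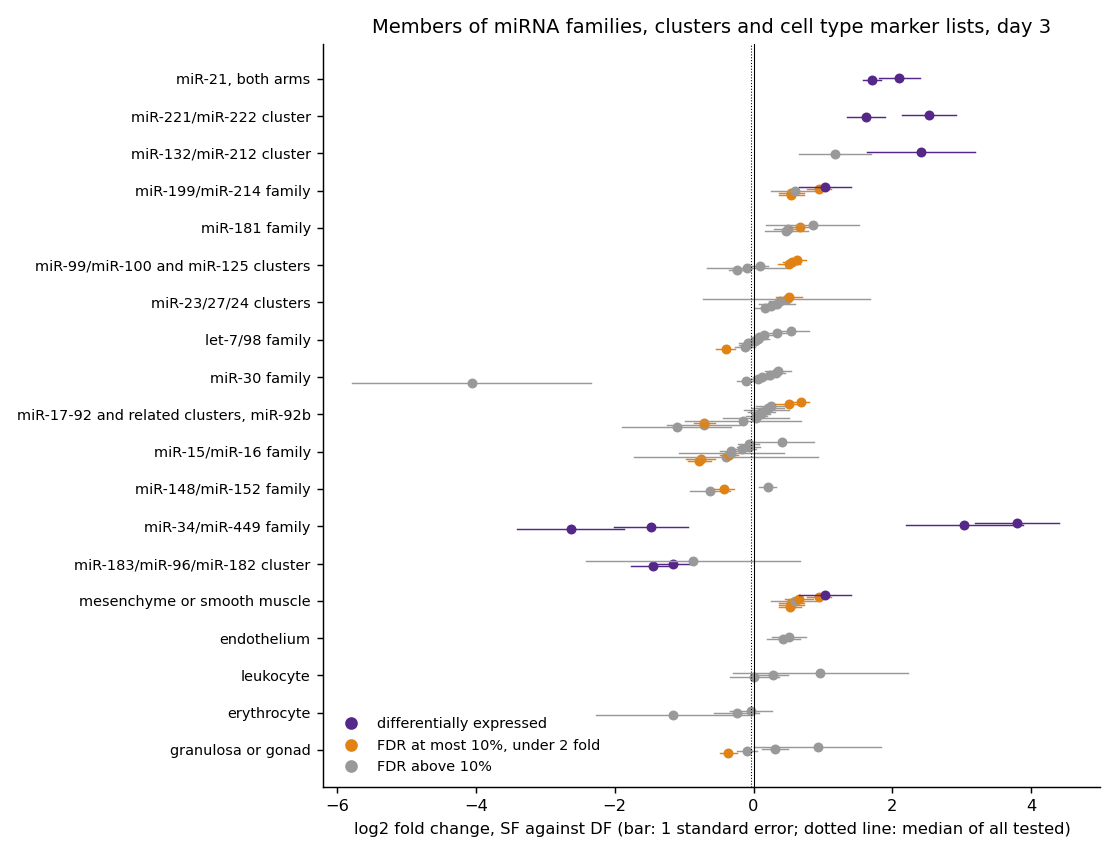
The log2 fold change (SF to DF) and its standard error for each tested member of the families, clusters and cell type marker lists named on the left, coloured by whether the miRNA was differentially expressed. The points of miR-21, of miR-221 and miR-222 and of miR-199 and miR-214 lie right of 0, those of miR-183, miR-96 and miR-182 left of it, and the 4 points of miR-34 and miR-449 on both sides.

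Neighbouring miRNA genes were also read as groups. By the positions of 371 of the 379 precursors in a RefSeq gene table, the tested miRNAs formed 48 groups whose genes lay within 10 kb of the next. Of the 19 differentially expressed miRNAs, 8 belonged to such a group, and they lay in 5 of the 48 groups. The share of all miRNAs tested that belonged to a group was not counted, so the 8 are not read as an excess. More than 1 of the 19 was held by 3 groups, namely miR-449a with miR-449c, miR-182 with miR-183, and miR-221 with miR-222. At the false discovery rate of 10%, 8 groups held more than 1 name that passed, and in 0 of them did names pass in opposite directions. Of these 8, 2 passed on the same names, bta-miR-92a and bta-miR-19b, and another held bta-miR-199a-3p with bta-miR-199c. In the other groups at most 1 name passed. Of all miRNAs tested, 16.7% passed that rate. How many groups would hold more than 1 such name at that share was not worked out, so these counts are not read as an excess. Of the 8 hairpins with at least 10 reads on both arms, 6 had the same sign on both, and for miR-21 and miR-199a both arms passed.

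Markers of other cell types that the follicular fluid could hold were read in the same way. Of 7 names that mark mesenchyme or smooth muscle, such as theca, 6 passed the false discovery rate and were higher in SF, against 8.66% of all miRNAs tested, and the list includes the miR-199 and miR-214 names described above, 2 of which share their counts. Their summed normalized counts were 4652 to 5748 in SF and 2824 to 4633 in DF. Most of this sum was bta-miR-143, a smooth muscle miRNA with 5336, 2660 and 3214 reads in SF and 2810, 6205 and 2392 in DF, which overlapped between the classes. For bta-miR-143 the log2 fold change was 0.53 (SE 0.16, edgeR adjusted p = 0.0239), and its adjusted p was 0.109 to 0.174 without SF replicate 1, SF replicate 3, DF replicate 1 or DF replicate 3. For its neighbour bta-miR-145 it was 0.65 (edgeR adjusted p = 0.0369), and 0.42 without SF replicate 3 (edgeR adjusted p = 0.268) or 0.55 without DF replicate 3 (edgeR adjusted p = 0.140). None of the 7 markers was at 0. The part of such cells in the other differences was not tested, and in bulk samples a change in the number of cells of a type cannot be told apart from a change in their RNA.

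No endothelial, erythrocyte, muscle or neuron marker passed the false discovery rate in edgeR or DESeq2, where 16.7% of all miRNAs tested passed in edgeR. Of these markers 2, bta-miR-126-3p and the neuron marker bta-miR-9-5p, had an unadjusted p of at most 0.05 in edgeR. The endothelial bta-miR-126-3p and bta-miR-126-5p had log2 fold changes of 0.51 (adjusted p = 0.192) and 0.43 (edgeR adjusted p = 0.25), with summed normalized counts of 109 to 141 in SF and 68.5 to 111 in DF. The erythrocyte markers bta-miR-451, bta-miR-486 and bta-miR-144 had negative log2 fold changes and varied between the SF libraries, at 0.629% of the reads of SF replicate 1 against 0.187% and 0.119% of replicates 2 and 3, and at 0.297% to 0.476% in DF. Without SF replicate 1, the SF library with the most erythrocyte miRNA, 9 of the 19 calls were made. Among them were those of bta-miR-21-5p, bta-miR-21-3p, bta-miR-155, bta-miR-221, bta-miR-222, bta-miR-449a and bta-miR-183. The SF libraries left in that fit had a smaller erythrocyte share than every DF library. The part of blood cells in the differences was not tested. Muscle and neuron markers had few reads, with summed normalized counts of at most 5.48, and the liver miRNA bta-miR-122 was at 0 in all 6 libraries.

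No miRNA marks granulosa cells alone. The gonad miRNA bta-miR-202 was abundant in every library, with 2708, 2043 and 2323 reads in SF and 4165, 6008 and 3246 in DF. It was lower in SF without overlap, at a log2 fold change of -0.36 (SE 0.12, edgeR adjusted p = 0.0649), and its adjusted p was 0.101 to 0.220 without SF replicate 1, SF replicate 3 or DF replicate 2. bta-miR-224, bta-miR-378 and bta-miR-383, which act on steroid synthesis in granulosa cells, had log2 fold changes of 0.31, -0.09 and 0.92 and did not pass.

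The detected miRNAs, those with at least 1 read in 2 of 3 replicates, numbered 296 for SF and 318 for DF, with 17 and 39 of them detected in that class alone. Detection in a single follicle class was a matter of few reads. Those with the most reads were bta-miR-499, bta-miR-133a and bta-miR-190a for SF, at 2, 1 and 4, 2, 1 and 4, and 5, 0 and 2 reads, and each of them had 1 to 3 reads in DF. For DF they were bta-miR-141, bta-miR-2313-5p and bta-miR-1, of which bta-miR-141 was differentially expressed. With all 6 libraries thinned to 199599 reads, the size of the smallest, the numbers of miRNAs detected were 287 for SF and 295 for DF.

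The level of a miRNA set the smallest change that could be seen. For the 37 miRNAs with a mean of at least 1000 reads, which held 90.5% of the reads, the median half-width of the 95% interval was 0.27 on the log2 scale, and 1 (2.70%) was differentially expressed although 12 passed the false discovery rate. Between 10 and 100 reads the half-width was 0.61, and 9 of 76 (11.8%) were differentially expressed. Under 10 reads it was 2.14, and the 7 of 152 (4.61%) that were differentially expressed had log2 fold changes of 1.46 or more in size. A further 54 miRNAs had a log2 fold change of 1 or more in size and were not differentially expressed, with a median of 1.17 reads per library, and for most of them a 2-fold change was not detectable at this depth.

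The same contrast at day 7, in 6 libraries of other heifers, gave 117 of 350 miRNAs (33.4%) as differentially expressed. The paper set larger diameter limits for both classes at day 7, where the largest SF could reach the size of the smallest DF of day 3. A difference between the days thus cannot be told apart from a difference in follicle size. Replicates differed more on that day, the dispersion being 0.107, against 0.0298 at day 3. Of the 19 miRNAs of day 3, 11 were differentially expressed at day 7 as well, 7 of them in the opposite direction. These 7 were bta-miR-21-5p, bta-miR-21-3p, bta-miR-155, bta-miR-221, bta-miR-222, bta-miR-214 and bta-miR-708, all higher in SF at day 3 and higher in DF at day 7. The raw counts of bta-miR-21-5p at day 7 were 2476, 7716 and 4886 in SF and 43258, 17931 and 48079 in DF, and those of bta-miR-155 were 164, 549 and 444 in SF and 4169, 3135 and 3264 in DF. On that day the DF libraries were far above the SF libraries, with log2 fold changes of -2.81 (edgeR adjusted p = 0.000507) and -3.30 (edgeR adjusted p = 0.000488). In the fit of the follicle by day interaction to the 12 libraries, 100 of 378 miRNAs (26.5%) passed the thresholds. Among them were 9 of the 19, the 7 named here and bta-miR-449a and bta-miR-449c.

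The other 4 of the 11 went the same way on both days. bta-miR-34a, for which the SF libraries had 11, 6 and 2 reads at day 7 and the DF libraries 89, 94 and 15, had a log2 fold change of -3.66 at day 7 (edgeR adjusted p = 0.00854). The others were bta-miR-3432, at -1.08 (edgeR adjusted p = 0.0561), bta-miR-677, at 1.29 (edgeR adjusted p = 0.0851), and bta-miR-2885, at 1.97 (edgeR adjusted p = 0.030). Neither miR-183 nor miR-182 differed at day 7 by the test, with log2 fold changes of -0.31 (edgeR adjusted p = 0.745) and -0.49 (edgeR adjusted p = 0.603), and the interaction did not pass for them either. SF replicate 2 of day 7 had the most reads of both, 246 and 582.

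**Figure D5:**
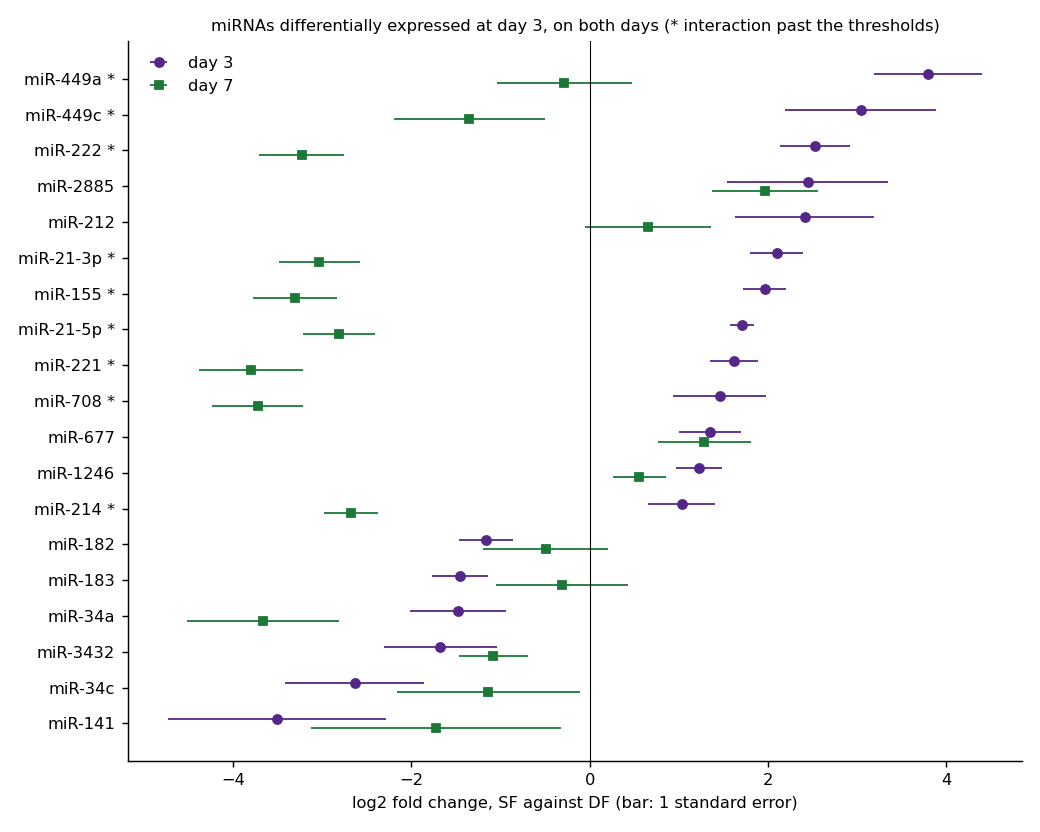
The log2 fold change (SF to DF) and its standard error at day 3 (circles) and day 7 (squares) for the 19 miRNAs differentially expressed at day 3, with an asterisk where the follicle by day interaction passed the thresholds. For the 7 miRNAs of the opposite direction, miR-222, miR-21-3p, miR-155, miR-21-5p, miR-221, miR-708 and miR-214, the squares lie left of -2 and the circles right of 1.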

How the data were processed

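Granulosa cell small RNA of SF and DF at day 3 was analysed from 6 of the 12 libraries, 3 per group as the labels give them, and the members and lists were chosen with earlier results of these data known. The authors called bases with CASAVA 1.8.0, checked the reads with FastQC and trimmed them with cutadapt. Alignment to the bovine genome and counting on miRBase miRNAs used miRDeep2. The authors deposited raw counts per mature miRNA and precursor, without normalization. Where a read matches several precursors it is listed at each, so the most abundant entry, by its total over 12 libraries, stood for each of 755 names. Reads shared by near-identical miRNAs cannot be assigned, and those names are stated where they are reported.

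Counts were tested in R 4.3.3 with edgeR 4.0.16, by the quasi-likelihood F test with median-of-ratios (RLE) factors, a prior count of 0.125 for fold changes and Benjamini-Hochberg adjustment over all miRNAs tested, two-sided. Calls needed a log2 fold change of 1 or more in size, p up to 0.05 and a false discovery rate up to 10%. The standard error is the absolute log2 fold change divided by the square root of F. Unless the labels' replicates came from separate pools of heifers, which is not stated, the p-values measure only the spread between these samples. The interaction of follicle and day used all 12 libraries. Named were all differentially expressed miRNAs, those the study names for day 3, their family and cluster members, the 10 most abundant, the 3 with most reads in 1 group alone, the 5 smallest adjusted p under 2 fold and the cell type markers. Other miRNAs under 2 fold were named after their values were seen. Alternatives were DESeq2 1.42.0, TMM factors, library size, other filters, entries and thresholds, a prior count of 2, all 12 libraries in a single fit, the replicate number as a block, and leaving out each library. The script was tested on simulated counts. The gene table is of another assembly than the counts and was used for names and neighbours only. Mature sequences, candidate miRNAs and theca cells were not analysed here.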

Additional observations from a re-analysis of the deposited data

Results flagged for a closer look

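For 9 of the 19 miRNAs differentially expressed at day 3, the difference between SF and DF at day 7 was another one by the follicle by day interaction fitted to the 12 libraries, for which 100 of 378 miRNAs (26.5%) passed the thresholds. The interaction is the log2 ratio of SF to DF at day 7 minus that at day 3. As the classes had other diameter limits at day 7, day and follicle size cannot be told apart in it. It was -5.85 for bta-miR-222 (edgeR adjusted p = 5.41e-06), -5.54 for bta-miR-221 (edgeR adjusted p = 6.65e-06), -5.37 for bta-miR-155 (edgeR adjusted p = 1.75e-06), -5.30 for bta-miR-708 (edgeR adjusted p = 2.30e-05) and -5.26 for bta-miR-21-3p (edgeR adjusted p = 2.81e-06). It was -4.66 for bta-miR-21-5p (edgeR adjusted p = 1.11e-06) and -3.86 for bta-miR-214 (edgeR adjusted p = 1.98e-05). In these 7 the SF libraries were above all DF libraries at day 3 and below them at day 7.

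The interaction was -4.51 for bta-miR-449c (edgeR adjusted p = 0.0154) and -4.21 for bta-miR-449a (edgeR adjusted p = 0.0133). Here the day 7 comparison by itself did not pass, with 5, 34 and 25 reads of bta-miR-449a in SF and 34, 2 and 51 in DF, and log2 fold changes of -0.29 (edgeR adjusted p = 0.769) for bta-miR-449a and -1.35 (edgeR adjusted p = 0.247) for bta-miR-449c.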

How the results depend on the processing

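The 19 calls of day 3, 13 higher and 6 lower in SF, became 11 with DESeq2 (8 and 3). A filter of at least 10 reads in 3 of the 6 libraries left 12 calls (8 higher). The rest of the 19 were not tested under it, and 0 of those tested lost their call. At a false discovery rate of 5% the calls were 13 (3 lower). In a single fit of all 12 libraries the calls were 8 (8 and 0), the day 7 libraries sharing the estimate of the spread. With all entries as listed they were 27, of which 20 were higher, since precursors of a miRNA were tested one by one. With a library left out, the calls numbered 10 to 21, with 6 to 16 higher and 4 to 8 lower, and the fewest came without SF replicate 1. In that single fit 15 miRNAs were lower in SF at an unadjusted p of at most 0.05, against 38 in the fit of the 6 libraries and 25 in DESeq2. TMM factors, library size, no filter, summed precursors and a prior count of 2 gave 18 to 21 calls. The single fit made the calls of bta-miR-21-5p, bta-miR-21-3p, bta-miR-155, bta-miR-222, bta-miR-449a, bta-miR-212 and bta-miR-1246 among the 19. No sign changed for the 56 miRNAs past the false discovery rate.

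The labels do not say whether SF and DF libraries of the same replicate number came from the same heifers. Deviations from the group means were correlated over the miRNAs with a mean of at least 10 reads. The values were -0.19, -0.09 and -0.06 between SF and DF libraries of the same number and -0.03 to 0.11 between the others. With so few libraries these values cannot decide whether the libraries were paired. With the number as a replicate block, 15 miRNAs were called (10 higher and 5 lower), without bta-miR-3432, bta-miR-2885, bta-miR-212 and bta-miR-708, and 106 in place of 100 for the interaction, which was 90 to 106 with a library left out. Sums over miRNAs with the same seed were not run, as mature sequences were not used here. For the 152 miRNAs under 10 reads the depth leaves a median half-width of 2.14 on the log2 scale.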
